A study of Mus musculus with 12 samples.

Results

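The CD300 receptors were followed as 6 genes, Cd300a, Cd300e, Cd300lb, Cd300ld, Cd300lf and Cd300lg, chosen by symbol among the 55335 genes measured. They were picked because Cd300lb fell the most after LPS in WT cells, so every value of theirs in the comparison of WTL with WT is a description and was not tested. RNA-seq was done on BMDCs, dendritic cells grown from C57BL/6 bone marrow for 6 days with GM-CSF, in 4 groups of 3 libraries, after selection of CD11c+ cells with beads. The mice were males and females aged 8 to 12 weeks. WT cells came from CreER mice and KO cells from CreER;CTCF fl/fl mice. In the latter, 4-OH tamoxifen (4-OHT) was given on the first day of culture to remove the loxP-flanked alleles of Ctcf, the gene of the insulator protein CTCF. WTL and KOL cells were the same cells stimulated with LPS, the bacterial cell wall component sensed by TLR4, at 100 ng/ml for 3 h, and WT and KO cells were left without it. CreER, a Cre recombinase that tamoxifen activates, was carried in all groups at the Rosa26 locus, which is active in most cell types. The descriptions of the study differ on whether WT cultures also received 4-OHT, so loss of CTCF and exposure to the drug cannot be told apart in KO against WT.

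CD300 receptors are cell surface proteins, mostly of myeloid cells, with a single immunoglobulin-like domain outside the cell, and several of them bind lipids such as phosphatidylserine that dying cells expose. The family is paired. CD300A and CD300LF carry inhibitory tyrosine motifs in their tails that recruit phosphatases, whereas CD300LB, CD300LD and CD300E have short tails and signal through the adaptors encoded by Tyrobp or Fcer1g. CD300LG is known mainly from endothelium, where it takes part in the binding of lymphocytes.

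Total expected counts were 12769773 to 16586334 per library, and a normalized count here is the count scaled to a common library size. Ctcf was at 974.9 to 1051 normalized counts in WT and at 516.0 to 569.7 in KO, a mean ratio of 0.547. A count per gene does not show whether the RNA left in KO held the loxP-flanked part. The paper reports that CTCF mRNA and protein were depleted in KO, and that CTCF binding was lost or strongly lowered. All 10 markers of dendritic cells were above the floor of 3 counts in every group. In KO against WT 2 of them rose, 4 fell and 4 were not called, where 22.2% of all genes tested rose and 22.4% fell. Itgax had means of 12350 in WT and 22020 in KO, H2-Ab1 15790 and 9297, and Flt3 131.4 and 32.55. Of 9 markers of macrophages and monocytes none was at the floor. Their summed level was 19300 to 20910 in WT and 28360 to 29450 in KO, but single markers went both ways in KO against WT. Csf1r carried most of the sum, with group means of 14230 in WT, 6272 in WTL, 23580 in KO and 5744 in KOL, whereas Adgre1 went from 1720 in WT to 981.2 in KO and Cd14 from 2541 to 1620. The 8 neutrophil markers summed to 1135 to 1264 in WT, 1675 to 1987 in WTL, 616.9 to 709.5 in KO and 1186 to 1414 in KOL, with Ly6g at the floor in WT, WTL and KO. S100a8 and S100a9 carried most of it. In KO against WT 5 of the 6 tested fell and 1 rose, and Cxcr2 went from 17.9 to 39.6. The 7 mast cell and basophil markers summed to 158.0 to 183.2 in WT, 101.1 to 146.7 in WTL, 118.6 to 146.2 in KO and 248.8 to 300.0 in KOL. Mcpt4, Fcer1a and Ms4a2 were at the floor in every group. Kit and Gata2 carried most of this sum and went opposite ways in KO against WT. Kit had means of 152.6 in WT, 53.4 in KO and 149.5 in KOL, and Gata2 11.3, 80.9 and 118.4. The 4 markers of plasmacytoid dendritic cells summed to 1457 to 1514 in WT and 6298 to 7454 in WTL, and to 1173 to 1224 in KO and 5827 to 7258 in KOL, nearly all of it Bst2 and Tcf4, with Siglech at the floor in WT, KO and KOL. The part of these cell types in the values of the Cd300 genes was not tested. B cell, T and NK cell and erythroid markers summed to at most 50.5 in any library. In bulk RNA, fewer cells that express a gene and less RNA per cell cannot be told apart.

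In the GENCODE M21 annotation of the mm10 genome, 12 genes carry a Cd300 symbol, all on chromosome 11. Of these, 11 lie in a run of 244.0 kb that starts with Cd300a at chr11:114890041-114904654 on the plus strand and ends with Cd300lf at chr11:115116214-115133992 on the minus strand. Between them lie Cd300lb at chr11:114922781-114934386, Cd300ld at chr11:114982274-114989922 and Cd300e at chr11:115051917-115062177, all on the minus strand. Cd300lg, at chr11:102041509-102055620 on the plus strand, lies 12.83 Mb away from that run, so by position it is no part of the cluster. The remaining symbols are Cd300c, Cd300c2, Cd300ld2, Cd300ld3, Cd300ld4 and Cd300ld5. Cd300lf sits on the opposite strand within Rab37, the gene of a small GTPase of secretory vesicles, and Cd300lb holds the pseudogene Gm11699 on its opposite strand.

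The sequences upstream of the 4 members whose counts fell most after LPS in WT are shown to set side by side the DNA at their starts. They come from the RefSeq promoter windows of GRCm38.p6, the build of mm10, in which 5 of the 6 members were matched. Each run reads 5′ to 3′ along the gene's own strand and holds up to 250 bases, ending before the first base annotated as transcribed. The runs lie at chr11:114934387-114934621 for Cd300lb, chr11:114889791-114890040 for Cd300a, chr11:114989923-114990136 for Cd300ld and chr11:115133993-115134242 for Cd300lf. Capitals mark matches on either strand to GAGGAA, the core bound by PU.1 and related ETS factors, or to TATAAA, the TATA box. The matches of Cd300lb and Cd300ld lie on the gene's own strand, and those of Cd300a and Cd300lf on the opposite strand. Unlike the box of Cd300lb, that of Cd300lf thus does not read along the gene.
Cd300lb: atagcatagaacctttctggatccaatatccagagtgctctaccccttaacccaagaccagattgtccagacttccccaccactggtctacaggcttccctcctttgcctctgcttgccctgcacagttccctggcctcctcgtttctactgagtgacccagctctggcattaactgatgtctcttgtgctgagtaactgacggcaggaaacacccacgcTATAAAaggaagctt
Cd300a: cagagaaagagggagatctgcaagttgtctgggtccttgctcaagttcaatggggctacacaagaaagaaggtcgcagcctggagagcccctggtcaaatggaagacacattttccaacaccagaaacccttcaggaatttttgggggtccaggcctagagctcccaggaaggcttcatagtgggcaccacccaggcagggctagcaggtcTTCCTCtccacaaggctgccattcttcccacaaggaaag
Cd300ld: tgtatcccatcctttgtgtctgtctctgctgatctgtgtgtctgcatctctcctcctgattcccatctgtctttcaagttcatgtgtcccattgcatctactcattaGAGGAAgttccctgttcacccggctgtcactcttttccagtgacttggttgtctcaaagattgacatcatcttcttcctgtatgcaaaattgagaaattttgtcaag
Cd300lf: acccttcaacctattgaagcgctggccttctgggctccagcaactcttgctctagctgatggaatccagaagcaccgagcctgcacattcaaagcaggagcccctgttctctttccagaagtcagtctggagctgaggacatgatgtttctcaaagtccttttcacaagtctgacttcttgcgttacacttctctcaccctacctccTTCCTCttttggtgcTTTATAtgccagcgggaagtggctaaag
GAGGAA was found 39 to 34 bases before the RefSeq start of Cd300a, 143 to 138 bases before that of Cd300ld and 43 to 38 bases before that of Cd300lf, and 23.3% of the 32851 mouse promoter windows of the same 250 bases hold it. TATAAA was found 30 to 25 bases before the start of Cd300lb and 28 to 23 bases before that of Cd300lf, against 12.4% of all windows. TGANTCA, the AP-1 motif, was searched as well and occurred in none of the 4, against 6.75% of all windows. No matches overlapped each other. These are matches of letters, with no measurement of binding.

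Reads shared between near-identical genes were examined first, because RSEM divides such reads. Of the distinct 100-base stretches in the transcripts of each gene, 0 of 2986 in Cd300lb, 0 of 1989 in Cd300e and 0 of 2931 in Cd300lg occurred in another gene. The counts of these 3 genes were whole numbers, within 0.005, in all 12 libraries. Cd300a shared 41 of 4830 stretches (0.85%) with Cd300c2, and its count was not whole in 12 of 12 libraries. Cd300ld and Cd300lf shared 35 stretches with each other, which is 1.37% of Cd300ld and 0.64% of Cd300lf, and their counts were not whole in 10 libraries each. The members were thus nearly distinct at this length. In contrast, Cd300ld3 shared 80.88% of its stretches, Cd300ld4 86.72% and Cd300ld5 100.0%, so counts of these 3 genes are uncertain.

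The levels of the members per transcript length differed widely. TPM, RSEM's estimate of transcripts scaled to the same total in every library, was 79.7 ± 1.56 (SD, n = 3) for Cd300lf in WT, 55.5 ± 2.55 for Cd300lb, 44.6 ± 1.84 for Cd300a, 10.9 ± 0.679 for Cd300ld, 7.03 ± 0.266 for Cd300lg and 0.927 ± 0.378 for Cd300e. No neighbours in this order overlapped. Cd300c2, an activating receptor gene that is no member, stood above them all at 170.6 ± 1.08 TPM and made up 45.8% of the TPM of all 12 symbols.
The order changed with LPS and between WT and KO. In WTL it ran Cd300lf (26.1), Cd300a (5.46), Cd300lg (4.58), Cd300ld (3.26), Cd300lb (2.70) and Cd300e (0.507 TPM), with Cd300ld and Cd300lb overlapping. In KO, Cd300lb led at 87.7 ± 1.12 TPM, above Cd300a at 41.4 and Cd300lf at 34.8. In KOL, Cd300lf at 14.7 ± 1.10 TPM and Cd300lb at 13.8 ± 4.02 overlapped and stood above Cd300a at 6.31. Cd300c2 remained the highest in every group, with 64.4% of the TPM of the symbols in WTL and 64.0% in KOL.

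**Figure D1:**
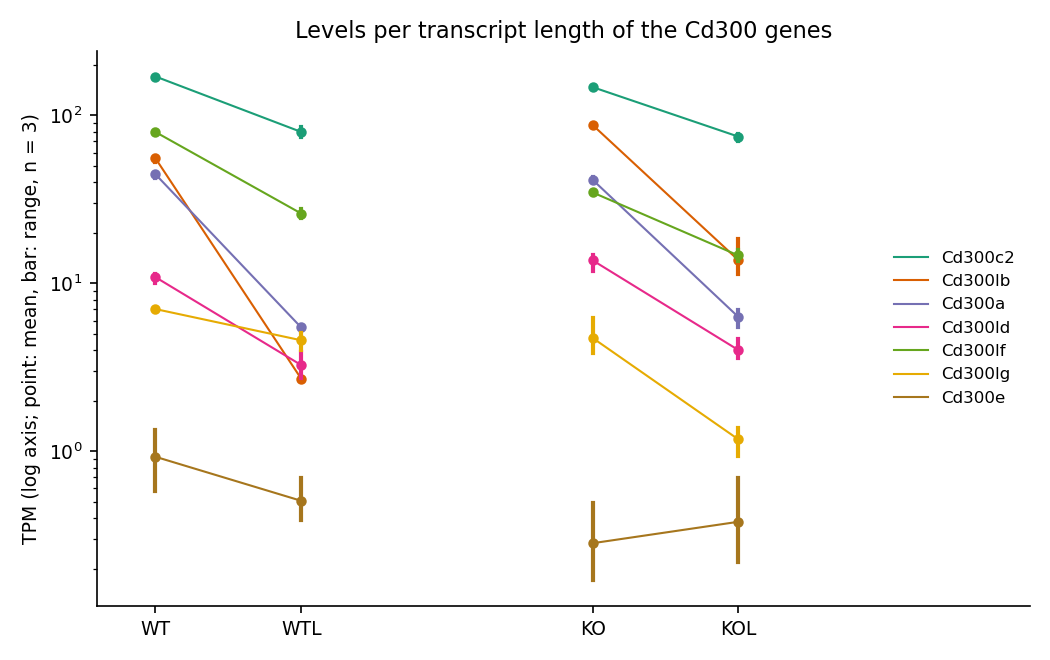
TPM of the 6 members and of Cd300c2 (log axis) in WT and WTL and in KO and KOL, with points for group means and bars from the lowest to the highest of 3 libraries. Cd300lb goes from rank 3 of the 7 genes in WT to rank 6 in WTL, and from 87.7 TPM in KO to 13.8 TPM in KOL.

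Cd300lb, which encodes the activating receptor CD300LB, ranked 1 among 9270 genes with at least 100 normalized counts for its fall after LPS in WT, and Cnr2 followed it with a log2 fold change of -3.62. Its normalized counts were 1328, 1462 and 1439 in WT and 102.5, 88.8 and 97.8 in WTL. The fitted log2 fold change was -3.87 (SE 0.16), and 6.84% of the mean level in WT was left. In KO it stood at 2414, 2403 and 2522, and in KOL at 425.8, 671.6 and 448.5. Every KO library was above every WT library, and every KOL library was above every WTL library while below every WT library.
In KO against WT, Cd300lb rose by 0.80 on the log2 scale (SE 0.12, adjusted p = 0.00012, edgeR), a ratio of means of 1.74. KO against WT shares its WT libraries with the contrast by which Cd300lb was chosen. In KOL against WTL the log2 difference was 2.42 (SE 0.16), a ratio of 5.35, and it is given without a test because Cd300lb was chosen for its low values in those WTL libraries. In KOL against KO, which shares no library with that choice, it fell by 2.25 (SE 0.13, adjusted p = 2.1e-09), with 21.1% of the KO level left. The LPS responses in KO and WT differed by 1.62 (SE 0.20), given without a test.

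Cd300a, which encodes the inhibitory receptor CD300A, fell with LPS as well, by less than Cd300lb in WT. Its normalized counts were 1422, 1503 and 1473 in WT, 280.5, 241.6 and 259.4 in WTL, 1367, 1344 and 1356 in KO and 321.5, 473.9 and 378.0 in KOL. The log2 fold change of WTL against WT was -2.49 (SE 0.11), with 17.8% left, and in KOL against KO Cd300a fell by 1.80 (SE 0.11, adjusted p = 2.7e-09, edgeR), with 28.9% left. Before LPS, KO and WT differed by -0.11 (95% interval -0.309 to 0.084, adjusted p = 0.39), although each KO library was below each WT library. After LPS, KOL was above WTL in every library, by 0.59 (SE 0.12, adjusted p = 0.00089). The difference of the LPS responses was 0.70 (SE 0.15, adjusted p = 0.0064). Both of these calls are lost on the TPM scale, where KOL against WTL was 0.17 (adjusted p = 0.15) and the difference of responses 0.28 (adjusted p = 0.18) by limma on log2(TPM + 1). The mean effective length that RSEM gave Cd300a, the length of its isoforms weighted by their estimated shares, was 3146 ± 109 bases in WT, 3163 ± 223 in WTL, 2932 ± 106 in KO and 4044 ± 638 in KOL, and TPM divides by it.

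Cd300ld encodes an activating receptor of the same group as CD300LB. It was at 278.3, 286.0 and 259.3 normalized counts in WT, 137.6, 121.3 and 96.8 in WTL, 395.7, 315.9 and 401.1 in KO, and 129.0, 174.3 and 142.0 in KOL. Both LPS groups lay wholly below their unstimulated groups, and a similar share was left in each, 43.2% in WTL and 40.0% in KOL. The log2 fold change was -1.22 (SE 0.14) in WTL against WT, and in KOL against KO Cd300ld fell by 1.32 (SE 0.14, adjusted p = 8.1e-07, edgeR). The difference of the responses was -0.10 (95% interval -0.492 to 0.285, adjusted p = 0.77). In KO against WT it rose by 0.43 (SE 0.12, adjusted p = 0.011), a call that is lost with limma on log2(TPM + 1) (adjusted p = 0.087) or without WT replicate 3 (0.069), KO replicate 1 (0.053) or KO replicate 3 (0.058), all by edgeR. In KOL against WTL it was 0.33 (SE 0.15, adjusted p = 0.097) with overlapping groups, and without WTL replicate 1 it passed (0.44, adjusted p = 0.045).

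Cd300lf, the gene of the inhibitory receptor that mouse norovirus uses for entry, moved in the opposite way to Cd300lb in KO against WT. It was at 1563, 1656 and 1655 normalized counts in WT and at 802.1, 792.1 and 755.0 in KO, and at 736.4, 733.4 and 725.1 in WTL and 412.9, 496.1 and 400.4 in KOL. All KO libraries were below all WT libraries, and all KOL libraries were below all WTL libraries. Cd300lf fell by 1.05 on the log2 scale in KO against WT (SE 0.08, adjusted p = 6.6e-08, edgeR) and by 0.75 in KOL against WTL (SE 0.08, adjusted p = 4.2e-06). With LPS the log2 fold change was -1.15 (SE 0.08) in WT, with 45.0% left. In KO it fell by 0.84 (SE 0.08, adjusted p = 4.2e-07), with 55.7% left. The responses differed by 0.31 (SE 0.11, adjusted p = 0.077), and this difference passed in DESeq2 (0.32, adjusted p = 0.033), with limma on log2(TPM + 1) without a filter (0.38, adjusted p = 0.031) and in edgeR without WT replicate 1 (adjusted p = 0.041) or KOL replicate 3 (adjusted p = 0.046).
Rab37, whose gene encloses Cd300lf on the other strand, went the other way. Its normalized counts were 9.19, 5.87 and 5.19 in WT and 175.0, 170.9 and 134.3 in KO, a rise of 4.55 (SE 0.22, adjusted p = 7.2e-10), and in KOL against WTL it was higher by 4.29 (SE 0.26, adjusted p = 1.2e-08). The 35 stretches of 100 bases that Cd300lf transcripts shared with another gene, on either strand, were all in Cd300ld and none in Rab37. Shorter overlaps of exons of Cd300lf and Rab37 were not examined, and the sources used here do not say whether counting used the strand.

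Cd300lg, the gene outside the cluster, overlapped between WT and WTL and was lower in KOL than in KO. It was at 147.9, 145.9 and 142.6 normalized counts in WT, 116.0, 153.8 and 130.8 in WTL, 87.9, 116.2 and 78.7 in KO and 28.0, 29.3 and 38.4 in KOL. WT and WTL overlapped, with a log2 fold change of -0.12 (SE 0.15) and 91.8% left, whereas every KOL library was below every other library. In KOL against KO, Cd300lg fell by 1.56 (SE 0.19, adjusted p = 5.5e-06, edgeR), with 33.8% left. The responses differed by -1.44 (SE 0.25, adjusted p = 0.0012). It also fell in KO against WT, by 0.63 (SE 0.15, adjusted p = 0.0042), and in KOL against WTL, by 2.06 (SE 0.19, adjusted p = 6.4e-07). Of the 4 endothelial markers, Tek was at the floor in every group and Pecam1 had at most 29.7 mean normalized counts. Kdr, the receptor for VEGF, had means of 12.8 in WT, 458.9 in WTL, 27.7 in KO and 760.5 in KOL.

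Cd300e, which encodes an activating receptor of monocytes, was the lowest of the 6. It was at 11.02, 26.0 and 17.3 normalized counts in WT, between 10.6 and 18.9 (mean 14.2) in WTL, and at 3.59, 3.84 and 10.2 in KO and 6.45, 19.9 and 6.41 in KOL. The groups with and without LPS overlapped, at -0.38 (SE 0.46) in WT and 0.86 (SE 0.58, adjusted p = 0.21, edgeR) in KO. In KO against WT it fell by 1.61 on the log2 scale (SE 0.52, adjusted p = 0.02), a call that is lost without WT replicate 2 (adjusted p = 0.099), KO replicate 1 (0.093) or KO replicate 2 (0.086). In KOL against WTL it was -0.37 (SE 0.52, adjusted p = 0.59), and the responses differed by 1.24 (SE 0.74, adjusted p = 0.29).

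**Figure D2:**
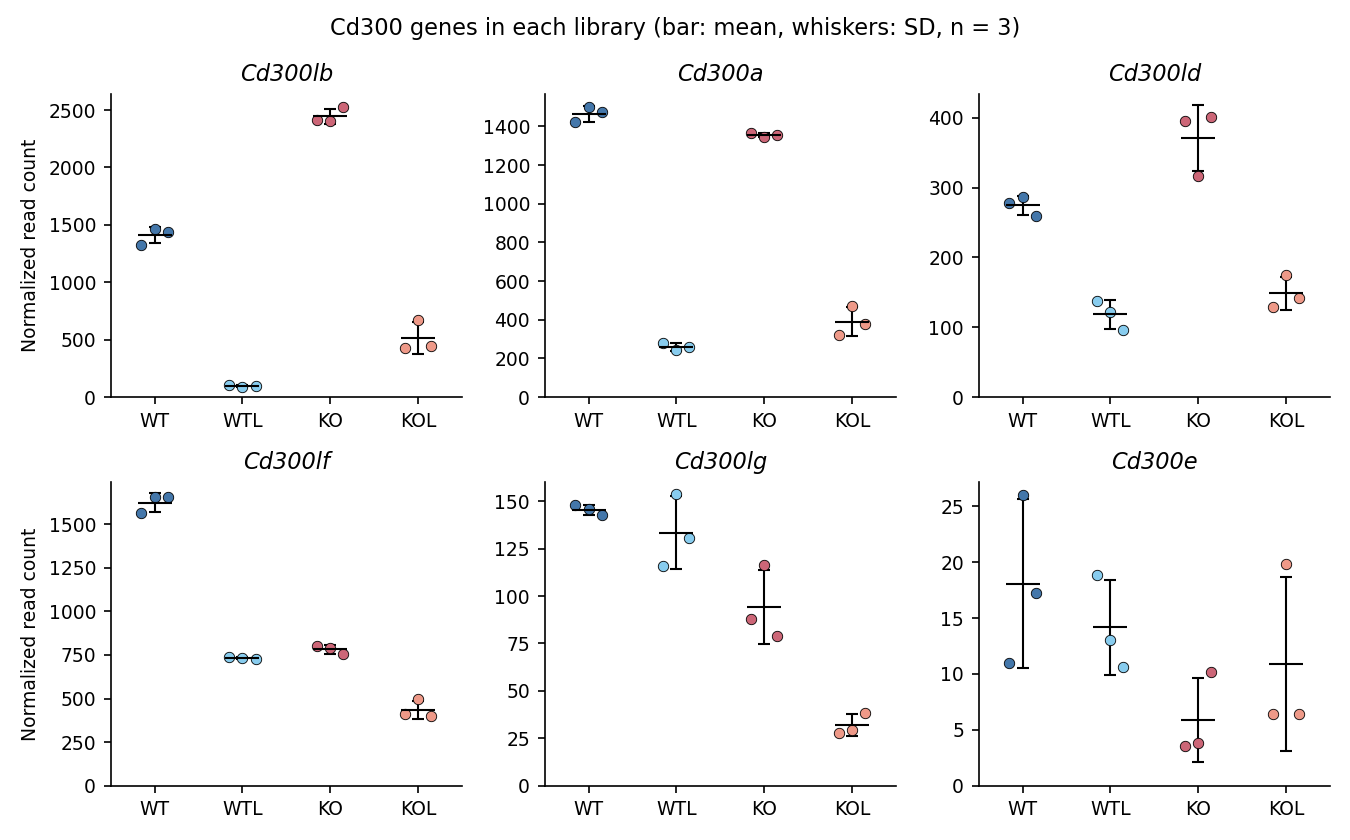
Normalized read counts (linear axes from 0) of the 6 members in each library of WT, WTL, KO and KOL, with the mean as a bar and the SD as whiskers, n = 3. Cd300lb, Cd300a, Cd300ld and Cd300lf are lower with LPS in both genotypes, Cd300lb is higher and Cd300lf lower in KO than in WT, and Cd300lg falls with LPS in KO and not beyond its spread in WT.

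Counted over the members, 2 rose (Cd300lb, Cd300ld) and 3 fell (Cd300e, Cd300lf, Cd300lg) in KO against WT, where 22.2% of the 14008 genes tested rose and 22.4% fell. The median log2 fold change of the members was -0.37, against -0.01 for all genes tested. Of the 5 members tested in KOL against WTL, 1 rose (Cd300a), 2 fell (Cd300lf, Cd300lg) and 2 were not called, against backgrounds of 21.4% higher and 23.3% lower, and their median was -0.37 against -0.04. KO against WT and KOL against WTL share their WT or WTL libraries with the contrast that chose Cd300lb.
In KOL against KO, 5 of the 6 fell and none rose, with a median of -1.44 against -0.02 for all genes, while 33.9% of all genes fell and 33.6% rose (51.6% and 16.6% with limma on log2(TPM + 1)). Of the 5 members whose difference in LPS response was tested, Cd300a was called higher and Cd300lg lower, against 8.7% and 8.75% of all genes. For WTL against WT, the contrast of the choice, 4 members were lower in all 3 WTL libraries than in any WT library, and 33.3% of all genes were so (30.2% called lower and 30.0% higher), which says nothing about the members here. All 6 members passed the filter on low counts.

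**Figure D3:**
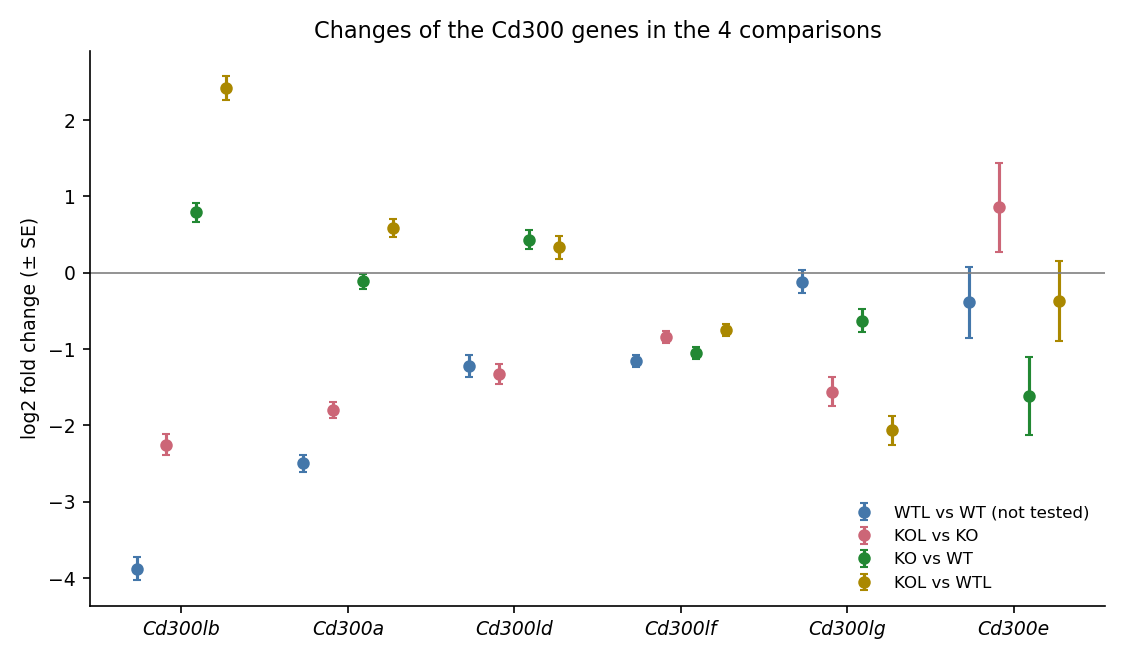
Fitted log2 fold changes (points) with their standard errors (whiskers) of the 6 members in 4 comparisons, the comparison of WTL with WT, and Cd300lb in KOL against WTL, being descriptions. Cd300lb goes from -3.87 in WTL against WT to 2.42 in KOL against WTL. Cd300lf and Cd300lg are below 0 in all 4 comparisons, Cd300lg by less than its SE in WTL against WT (-0.12, SE 0.15).

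Summed over the 6 members, normalized counts were 4939 ± 169.0 in WT and 5057 ± 75.5 in KO, and 1355 ± 35.6 in WTL and 1534 ± 289.9 in KOL. On this scale the means of WT and KO differed by less than the SD of WT. In TPM the sums were 198.6 ± 5.42 in WT, 182.6 ± 1.72 in KO, 42.6 ± 1.94 in WTL and 40.3 ± 6.55 in KOL. There KO lay below WT by more than the SD of either group. The median log2 fold change of all genes tested was also below 0 in KO against WT on that scale. It was -0.106 with limma on log2(TPM + 1). WTL and KOL differed by less than the SD of KOL on both scales.

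Over the 12 libraries, which share the same 4 groups, log2 normalized counts of Cd300a, Cd300lb and Cd300ld ran close together, with Pearson correlations of 0.95 (Cd300a and Cd300ld), 0.93 (Cd300a and Cd300lb) and 0.93 (Cd300lb and Cd300ld). Cd300lf correlated at 0.80 with Cd300lg and at 0.37 with Cd300lb, and Cd300lb at -0.03 with Cd300lg. Among all genes tested, the 5 most like Cd300lb were Agfg2, Tec and Pvt1 (0.988 each), Cln8 (0.985) and Neurl1b (0.984). Neurl1b, an E3 ubiquitin ligase gene, had means of 220.7 in WT, 19.5 in WTL, 399.8 in KO and 74.2 normalized counts in KOL. Tec, a tyrosine kinase gene, had 661.1, 357.4, 727.3 and 479.7 in the same groups. The likeness is one of shape over 4 groups and not of size.

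Cd300c2, which lies between Cd300ld and Cd300e, was at 1766 ± 56.2 normalized counts in WT, 1166 ± 38.5 in WTL, 1636 ± 45.6 in KO and 1119 ± 91.5 in KOL. It fell with LPS by 0.60 in WT (SE 0.07, adjusted p = 5.6e-06, edgeR) and by 0.55 in KO (SE 0.07, adjusted p = 1.1e-05). Its difference between KO and WT was -0.11 (95% interval -0.250 to 0.029, adjusted p = 0.23) and that between KOL and WTL -0.06 (95% interval -0.202 to 0.083, adjusted p = 0.54). Cd300c, Cd300ld2, Cd300ld3, Cd300ld4 and Cd300ld5 did not pass the filter, and Cd300ld4 and Cd300ld5 were listed at 0 in every library.
Of the 3 nearest tested genes on the Cd300a side, Gprc5c, an orphan receptor gene, had means of 114.4 in WT, 506.2 in WTL, 540.4 in KO and 503.4 in KOL. It rose in KO against WT by 2.24 (SE 0.12, adjusted p = 1.9e-09). Kif19a and Btbd17 were low, with means of 11.8 and 7.79 normalized counts over the WT and KO libraries. On the Cd300lf side, Slc9a3r1, a scaffold protein gene, rose by 1.15 (SE 0.12, adjusted p = 2.7e-06), Tmem104 rose by 0.53 (SE 0.09, adjusted p = 0.00014) and Nat9 fell by 0.52 (SE 0.11, adjusted p = 0.0015) in the same comparison.

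**Figure D4:**
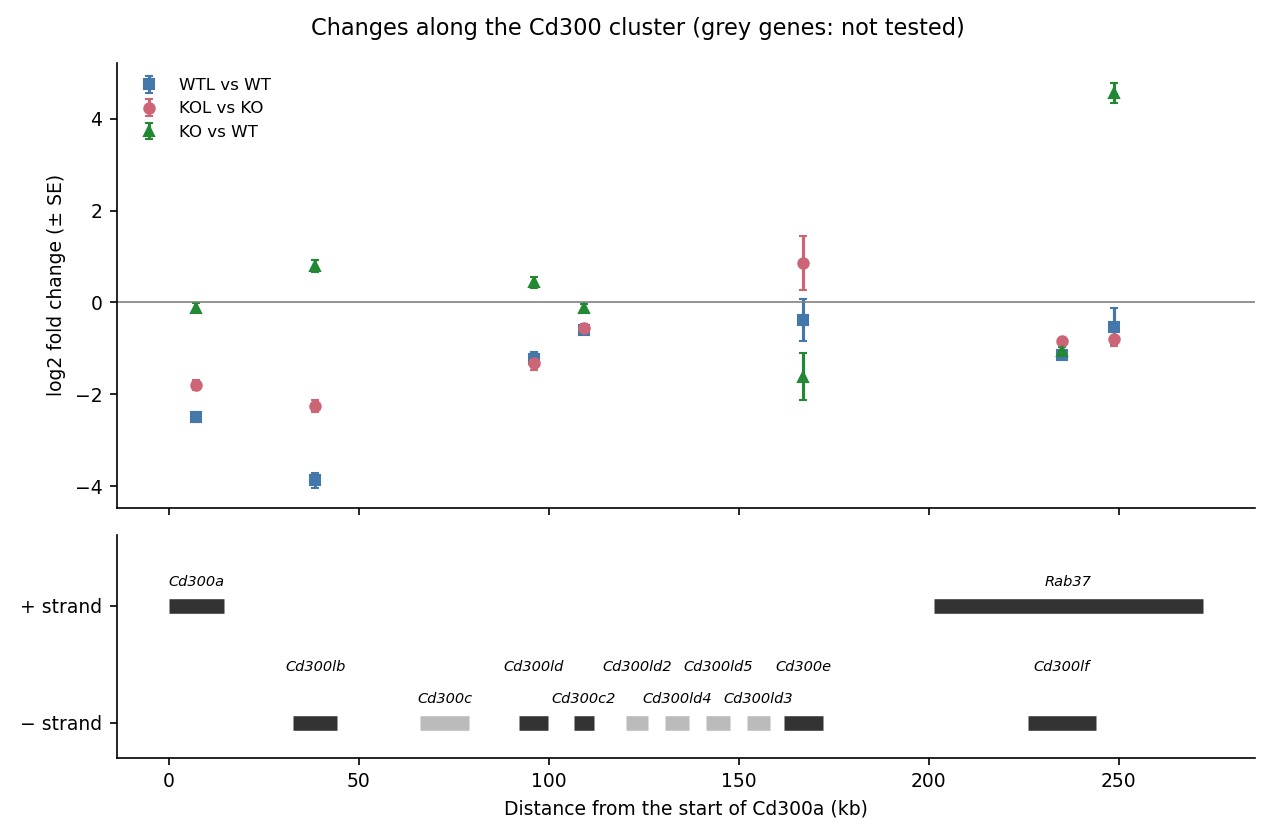
Log2 fold changes (± SE, upper panel) of the tested genes of the cluster in 3 comparisons, set at the middle of each gene by distance from the start of Cd300a in kb, above a map of the genes by strand (lower panel). The points of Rab37 are moved to the right so that they do not cover those of Cd300lf, and KO against WT runs from -1.61 at Cd300e to 4.55 at Rab37 within the run.

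Genes listed as downstream of CD300 and related receptors moved in both directions, and signalling itself was not measured. All 23 genes of a list of adaptors, kinases and phosphatases were tested, and with LPS in WT 12 rose, 7 fell and 4 were not called, where 30.0% of all genes rose and 30.2% fell. This split turns on the TPM scale, where limma on log2(TPM + 1) gave 5 higher and 13 lower, against 12.6% and 55.8% of all genes, and called Lyn and Pik3cd lower in place of higher. In KOL against KO 9 rose, 10 fell and 4 were not called, against 33.6% and 33.9% of all genes. On the TPM scale 7 were higher and 15 lower, against 16.6% and 51.6% of all genes, with Ptpn11 lower in place of higher. Src, a tyrosine kinase gene, rose by 2.73 in WT (SE 0.10, adjusted p = 8.5e-12, edgeR) and by 2.59 in KO (SE 0.09, adjusted p = 7.5e-12). Inpp5d, the gene of the inositol phosphatase SHIP that inhibitory receptors recruit, fell by 2.10 in WT (SE 0.07, adjusted p = 7.1e-12) and by 2.32 in KO (SE 0.07, adjusted p = 2.1e-12). Dok1 and Dok2, which encode related adaptors, went apart, with log2 fold changes of 1.49 and -1.28 in WT and 1.75 and -1.98 in KO.
In KO against WT, 8 of the 23 rose, 4 fell and 11 were not called, against 22.2% and 22.4% of all genes. Dok2 rose by 1.12 (SE 0.08, adjusted p = 6e-08), Grb2, an adaptor gene, by 0.65 (SE 0.06, adjusted p = 5.4e-07), and Fyn, a kinase gene, fell by 0.97 (SE 0.09, adjusted p = 5.3e-07). In KOL against WTL 7 rose, 11 fell and 5 were not called (21.4% and 23.3% of all genes). On the TPM scale 6 were higher and 7 lower, against 14.9% and 19.1% of all genes. Among those called by edgeR were Fgr, another kinase gene, that fell by 0.75 (SE 0.08, adjusted p = 4.3e-06) and Hcst, an adaptor gene, that rose by 0.74 (SE 0.11, adjusted p = 8.7e-05). The LPS response differed in 10 genes, higher in 2 and lower in 8 (8.7% and 8.75% of all genes), among the latter Syk, the kinase that the adaptors recruit, at -0.74 (SE 0.12, adjusted p = 0.00083). Tyrobp, the adaptor gene, had means of 9218 in WT, 8722 in WTL, 12170 in KO and 11450 normalized counts in KOL, and Fcer1g had 4412, 6961, 3903 and 5267.

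Other paired receptors of myeloid cells also split. Of 30 genes listed, 29 were in the files and 27 were tested. In KO against WT 15 rose, 4 fell and 8 were not called, where 22.2% of all genes rose and 22.4% fell, the largest changes being those of Siglec1, a sialic acid receptor of macrophages, which fell by 3.68 (SE 0.30, adjusted p = 2e-07, edgeR), and Lilra6, which rose by 2.33 (SE 0.13, adjusted p = 2.7e-09). With LPS, 11 rose, 8 fell and 8 were not called in WT, and 8 rose, 14 fell and 5 were not called in KO, against 30.0% and 30.2% of all genes in WT and 33.6% and 33.9% in KO. On the TPM scale, limma on log2(TPM + 1) gave 5 higher and 16 lower in WT, with Pirb called lower in place of higher, and 4 higher and 19 lower in KO, with Sirpa likewise, against 12.6% and 55.8% of all genes in WT and 16.6% and 51.6% in KO. Cd200r1, the inhibitory receptor for CD200, fell by 2.37 in WT (SE 0.10, adjusted p = 4.8e-11) and by 2.24 in KO (SE 0.10, adjusted p = 6.9e-11), and Lair1, a collagen receptor, fell by 1.55 (SE 0.10, adjusted p = 1.1e-08) and 1.79 (SE 0.10, adjusted p = 1.4e-09). In KOL against WTL 8 rose, 8 fell and 11 were not called (21.4% and 23.3% of all genes), and the responses differed in 9 genes, higher in 1 and lower in 8 (8.7% and 8.75%). The median log2 fold change of this list was 0.41 in KO against WT and -0.32 in KOL against KO, against -0.01 and -0.02 for all genes tested.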

How the data were processed

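RNA was sequenced in 12 libraries (WT, WTL, KO and KOL, 3 each). Reads were trimmed by the authors (Trim Galore), mapped with STAR (version 2.5.1 in the submitters' processing notes) to the mm10 build, and assigned to genes by RSEM. They deposited per gene an expected count, which need not be whole, and a TPM, which has the same sum in every library and keeps no depth. The effective length that they deposited was also read. The library kit is described differently in the sample labels (rRNA depletion) and in the paper (poly(A) selection), and a strand setting for RSEM is not given in the sources used here. The paper describes the 3 replicates of each condition as biological, but the labels do not tie replicates to separate animals. The p-values measure the spread between these libraries, which may be partly technical.

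Expected counts were rounded, filtered with filterByExpr and normalized by TMM in edgeR 4.0.16 (R 4.3.3), and 14008 genes were tested in a single quasi-likelihood fit of all libraries, with Benjamini-Hochberg adjustment over them and a threshold of 0.05 without a fold cutoff. SE is the log2 fold change divided by the root of F, and 95% intervals are 1.96 SE to each side. At these depths a gene with at most 3 counts in each library of a group was taken as at the floor. In WTL replicate 2, 5.165% of counts fell on ribosomal RNA genes, against 1.185% or less in the others. Scripts were tested on simulated counts.

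The members and lists were chosen with earlier results of these data known. Named were all members, Ctcf, the other Cd300 genes, genes overlapping the run of Cd300 genes with gaps under 1 Mb (the rule's span would otherwise reach 12.83 Mb to Cd300lg) and 3 tested genes on each side, up to 4 examples per list and comparison with the largest changes among called genes averaging at least 100 normalized counts (not all are printed), and the 5 genes most correlated with Cd300lb. Cnr2, the adaptor genes Tyrobp and Fcer1g, the list genes that TPM called the other way, and the marker genes were named after their values were seen. GENCODE M21 held 3 of 4 transcripts of Cd300lb listed in the files, and all transcripts of the other members. Alternatives were DESeq2 1.42.0, its size factors, other filters, 2 groups only, the replicate block, the study's fold cutoffs, limma 3.58.1 on log2 TPM with a pseudocount of 1 or 0.1, and leaving out each library.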

Additional observations from a re-analysis of the deposited data

Results flagged for a closer look

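The LPS response of 2 members differed between KO and WT by a test of the difference itself. For Cd300a the response was higher in KO by 0.70 on the log2 scale (SE 0.15, adjusted p = 0.0064, edgeR interaction term), from -2.49 in WT to -1.80 in KO. For Cd300lg it differed by -1.44 (SE 0.25, adjusted p = 0.0012), from -0.12 in WT to -1.56 in KO. With limma on TPM the value for Cd300a was 0.28 to 0.31 and did not pass (adjusted p = 0.17 to 0.19), and RSEM's effective length of Cd300a was 4044 ± 638 bases in KOL against 2932 ± 106 in KO, whose part in the result was not tested.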

How the results depend on the processing

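No value of a member changed its direction against a call. On TPM, Lyn and Pik3cd (WTL against WT), Ptpn11 (KOL against KO), Pirb (WTL against WT) and Sirpa (KOL against KO) were called the other way, and the lists' splits with LPS turned to mostly lower, as given above. Limma on TPM gave larger falls in WTL against WT, of -2.82, -3.01 and -2.82 for Cd300a, -1.49, -1.72 and -1.49 for Cd300ld, -1.58, -1.61 and -1.58 for Cd300lf and -0.53, -0.61 and -0.53 for Cd300lg on log2(TPM + 1), log2(TPM + 0.1) and log2(TPM + 1) without a filter, and -4.31 for Cd300lb with 0.1. TPM moves the median of all genes in that comparison by -0.43 with 1 and by -0.51 with 0.1, and by -0.38 and -0.44 in KOL against KO. In KO against WT that median moves by -0.09 and -0.10. Both pseudocounts left 3 members called in KO against WT and 1 in the interaction, in fits whose TPM filter Cd300e did not pass. In KO against WT 13.4% of all genes were higher and 23.1% lower with 1 (12.3% and 21.7% with 0.1). In the interaction the shares were 6.8% and 4.52% with 1, 6.08% and 3.5% with 0.1, and 3.33% and 2.25% without a filter. There, 5 signalling genes were called (6 without a filter), and 4 paired receptors with 0.1 or without a filter. The study's fold cutoffs left 7 signalling and 5 paired receptor genes in WTL against WT, 3 and 10 in KOL against WTL and 7 and 9 in KOL against KO, fewer by construction, and took Cd300lf in KOL against KO below a fold of 2. Fits of 2 groups only called 19 signalling genes in KO against WT and 11 in KOL against WTL, and Cd300a in KO against WT (adjusted p = 0.024). No filter gave 6 signalling genes in the interaction. Elsewhere the cause was not tested. For settings other than the main fit and limma on TPM, the share of all genes called is not given here, so their counts are not set against it.

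Leaving out each library gave log2 fold changes in WTL against WT of -2.60 to -2.44 for Cd300a, -0.71 to -0.10 for Cd300e, -3.99 to -3.82 for Cd300lb, -1.34 to -1.09 for Cd300ld, -1.26 to -1.15 for Cd300lf and -0.23 to -0.03 for Cd300lg. Members called were 3 to 5 in KO against WT (3 without KO replicate 1), and signalling genes in the interaction 4 to 12 (4 without KO replicate 1 or 3, 5 without any one WT library or WTL replicate 2, 6 without KOL replicate 1). Deviations of libraries with equal replicate numbers correlated at -0.286 to 0.112, which cannot show whether such libraries came from the same animal or culture. With the replicate block 5 members were called in KO against WT, 3 of 5 in KOL against WTL, 5 in KOL against KO and 2 in the interaction, as without it. Depth limits Cd300e, with at most 26.0 normalized counts in a library.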
